A study of Rattus norvegicus with 12 samples.

Results

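Ultraconserved elements are stretches of genome kept identical between human, mouse and rat. Some are transcribed into non-coding RNAs, called transcribed ultraconserved regions, from one strand or from both, and several have been studied for their altered levels in tumours. They lie inside exons, inside introns and between genes, and a number of them overlap genes of RNA-processing proteins. On the arrays of this study they are represented by probes named by element number and strand sign. All 959 probes whose name begins with uc., an element number and a + or - sign were taken, out of 38804 probes. They cover 480 elements, numbered between 1 and 483. A + and a - probe were present for 479 of these elements, and uc.404 had 1 probe. The sign is used here as the probe name gives it. The genome strand it refers to, the probe sequences and the positions of the elements were not given in the sources used here, and no sequence was analysed here.

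RNA was taken from the synovial tissue, the lining of the joints, of 12 male rats in 3 groups of 4. The Control group held normal rats, the CIA group held rats with collagen-induced arthritis, a model in which immunisation with collagen provokes joint inflammation, and the BZXD group held CIA rats treated with a herbal preparation, Bi Zhong Xiao Decoction. Strain, age, dose and length of treatment were not given in the sources used here. Each rat gave 1 single-colour array. The labels' protocol describes removal of ribosomal RNA and random-primed labelling along whole transcripts. The deposited files named none of 17 marker genes of synovial, immune, muscle, fat and blood cells, so the labelled tissue was not checked against markers. In bulk tissue, fewer cells of a type and less RNA per cell cannot be told apart.

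Every group had a slide and a scan of its own, which therefore cannot be told apart from the group. The 75th percentile of intensity over all probes was 54.3 to 69.6 in Control, 91.1 to 118 in CIA and 24.7 to 32.7 in BZXD arrays. The scanner software marked 73.8% ± 5.98 of all probes as well above background on Control arrays, 75.8% ± 6.54 on CIA arrays and 49.4% ± 4.10 on BZXD arrays (SD, n = 4 each). BZXD replicate 2 stood apart from the other BZXD arrays for many of the elements, and had the highest share of outlier spots, 3.29%. Values without it are given beside the members named below that it moved most.

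In every group the mean share of ultraconserved element probes well above background lay under that of all probes, a difference that was not tested. Their share averaged 50.8% ± 6.81 on the Control arrays, 55.3% ± 7.83 on the CIA arrays and 26.5% ± 3.65 on the BZXD arrays (SD, n = 4 each). The 4 BZXD arrays, at 23.5% to 30.9%, all lay below the 8 others, which held 41.0% to 62.6%. Control and CIA arrays overlapped. Of the 959 probes, 153 were well above background on all 12 arrays, 70 of them + and 83 of them -, and 252 were so on none, 133 of them + and 119 of them -. No member was well above background on all 4 arrays of Control or of CIA and on none of the other groups. For BZXD 2 members were. The same counts were not made over all probes, so they are not read as particular to the members.

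The - probes were well above background slightly more often than the + probes on 11 of 12 arrays. The mean shares of + and - probes were 49.9% and 51.6% in Control, 54.3% and 56.2% in CIA, and 24.7% and 28.4% in BZXD. The + share minus the - share was -1.61 ± 1.26 percentage points for Control, -1.97 ± 0.309 for CIA and -3.70 ± 2.79 for BZXD (SD, n = 4 each). Among BZXD arrays it was -7.88 in replicate 2 and between -2.44 and -2.24 in the other 3. The difference of this gap between BZXD and CIA was -1.73 points, with a two-sided exact permutation p of 0.0286, the smallest that 4 against 4 arrays can give, and 0.0857 after Benjamini-Hochberg adjustment over the 3 comparisons. Without BZXD replicate 2 it was -0.336. The p also depends on how outlier spots were treated. Counting a spot marked as an outlier as not above background was settled after a first set of results had been seen, and with such spots keeping their own detection flag, as in that first set, the difference was -1.52 with an exact permutation p of 0.314. With the scanner's looser flag of positive and significant signal it was -6.12, with an exact permutation p of 0.0286. Because the result differed with these choices and with 1 array, the gap is not reported as different between BZXD and CIA. BZXD against Control gave -2.08 (exact permutation p = 0.2) and CIA against Control -0.356 (exact permutation p = 0.8).

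**Figure D1:**
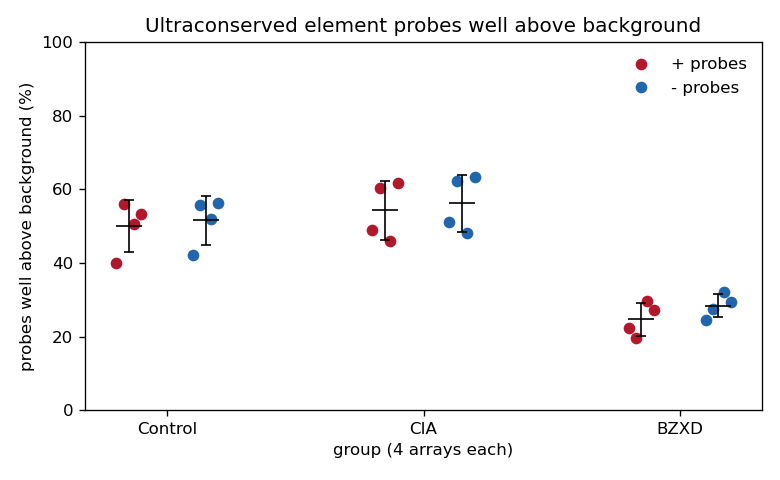
Share of ultraconserved element probes well above background (y axis, percent) in each array (dots) of the 3 groups, for + probes (red) and - probes (blue), with the group mean (horizontal mark) and SD (error bar), n = 4. All BZXD arrays lie below all Control and CIA arrays, and the BZXD array with the lowest + share, 19.6%, is replicate 2.

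Some elements were detected from both strands, some from 1 alone and some from neither. Within a group, an element was placed by whether each of its probes was well above background on all 4 arrays or on none. In Control, 83 of 479 elements had both probes on all 4 arrays, 61 had the + probe on all and the - probe on none, 74 the reverse, and 77 had neither on any array. In CIA these counts were 98, 58, 70 and 58. In BZXD they were 22, 36, 54 and 215. The remaining 184, 195 and 152 elements had a probe on some arrays of the group. The + probe and the - probe of an element were only loosely tied. In BZXD the - probe was on all 4 arrays for 19.4% of elements, and for 29.3% of the 75 elements whose + probe was. In CIA the same shares were 44.9% and 48.8%. The classes depend on the flag. With the looser flag of positive and significant signal, both, + alone, - alone and neither were 228, 26, 18 and 4 in Control. In BZXD they were 72, 32, 45 and 69 with that flag.

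No element went from + alone to - alone, or from - alone to + alone, in any pair of groups. Such a switch needs a probe to go from no array to all 4, which was rare among members. It was seen for 1 of 367 (0.272%) from Control to CIA, 3 of 315 (0.952%) from CIA to BZXD and 3 of 367 (0.817%) from Control to BZXD. Over all probes these shares were 0.610%, 11.4% and 10.7%. The absence of switches therefore says little about the choice of strand. Of the 58 elements with + alone in CIA, 15 had + alone in BZXD, 24 had neither probe on any array, 18 had a probe on some arrays and 1 had both. Of the 70 with - alone in CIA, 22 had - alone in BZXD, 21 neither and 27 a probe on some arrays. Of the 98 elements with both probes in CIA, 18 had both in BZXD, 11 had + alone, 18 had - alone and 15 had neither.

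**Figure D2:**
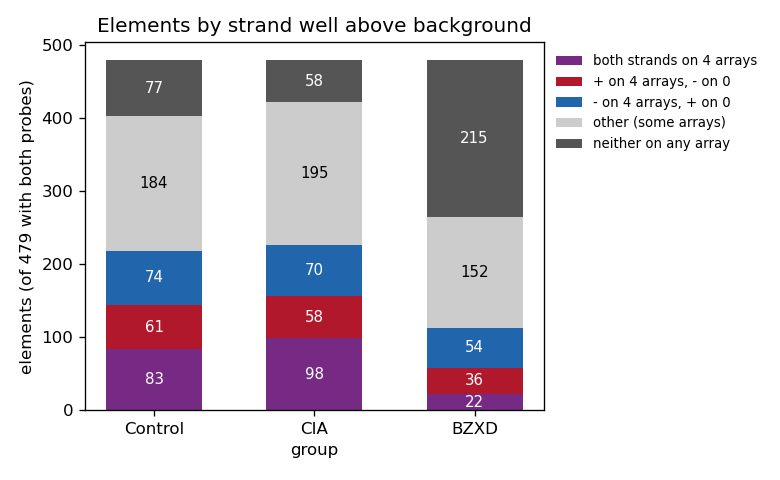
Number of the 479 elements with both probes (y axis) in each class of detection by the flag of well above background, stacked for each group. Elements with neither probe on any array number 77 in Control, 58 in CIA and 215 in BZXD.

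Across all 12 arrays, 18 elements had both probes well above background throughout, 12 had + throughout and - on none, 21 had - throughout and + on none, and 39 had neither anywhere. Among elements with + alone, the brightest + probes were those of uc.426, uc.195, uc.452 and uc.307. The level of uc.426+, as a multiple of its array's 75th percentile, was 3.25, 3.74, 3.24 and 3.61 in Control, 2.97, 3.30, 3.12 and 3.19 in CIA, and 1.36, 1.32, 1.45 and 1.72 in BZXD. All BZXD arrays were lower than all others, and the log2 difference between BZXD and CIA was -1.11 ± 0.15 (SE, limma adjusted p = 0.000183). Among elements with - alone, the brightest - probes were those of uc.440, uc.10, uc.460 and uc.92. The level of uc.440- varied widely within groups, at 845, 85.8, 716 and 133 in Control, 740, 71.4, 871 and 541 in CIA, and 168, 0.625, 96.1 and 111 in BZXD. Its groups overlapped and no comparison of it passed the test.

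To compare levels between groups, log2 intensities relative to the array's 75th percentile were tested with limma, with Benjamini-Hochberg adjustment over all probes tested and a threshold of adjusted p 0.05. Testing required detection, meaning well above background, on 4 or more of the 12 arrays, which 541 of the 959 members reached, 266 of them + and 275 -. The other 418 were too dim. A member can pass through 1 group alone.

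Between CIA and Control, 47 of the 541 tested members passed the threshold, 22 higher and 25 lower in CIA, or 8.69%, beside 10.7% of all probes tested, of which 2.91% were higher and 7.81% lower. The median log2 difference was 0.00 over the members and -0.08 over all probes. The count depended on single arrays and on the fit. It was 4 without Control replicate 4, and 0 in a fit over all 12 arrays, where 63 members had an unadjusted p under 0.05, beside 156 in the fit over 8 arrays. Over all probes 0.610% were called without that array and 0.0128% in the fit over 12 arrays. With normexp background correction the count of members was 355 (65.6%), with 34 higher and 321 lower, beside 61.4% of all probes tested. Of those calls over all probes 10.9% were higher. With median scaling 26 members were higher and 7 lower (6.10% called), beside 5.06% of all probes, with 61.6% of those calls higher. With quantile normalization 39 were higher and 18 lower (10.5%), beside 11.1% of all probes, with 38.5% of those calls higher.

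Among called members well above background on all 8 arrays and without overlap between CIA and Control, the largest rise was in uc.183-. Its relative level was 0.178, 0.153, 0.149 and 0.142 in the Control arrays, 3.87, 1.54, 1.63 and 3.23 in the CIA arrays, and 0.0351, 0.694, 0.0317 and 0.0379 in the BZXD arrays. All CIA arrays stood above all others, and among BZXD arrays only replicate 2 was well above background. The log2 difference between CIA and Control was 3.93 ± 0.29 (SE, limma adjusted p = 0.000834). The + probe of the same element did not follow it. The level of uc.183+ was 0.179, 0.286, 0.328 and 0.325 in Control and 0.245, 0.178, 0.204 and 0.187 in CIA, with overlap between the groups.

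The next was uc.361-, at 8.49, 5.46, 6.49 and 5.83 in Control, 31.0, 22.8, 28.5 and 30.1 in CIA, and 0.181, 4.04, 0.442 and 0.0543 in BZXD. The 3 groups did not overlap. CIA was higher than Control by 2.11 ± 0.15 on the log2 scale (limma adjusted p = 0.000834) and BZXD was lower than CIA by a difference of -6.26 ± 1.11 (adjusted p = 0.000993), or -7.42 without BZXD replicate 2. On 1 BZXD array it was not well above background, so its value there is not a measured level. Both uc.183- and uc.361- kept their calls between CIA and Control when any 1 array was left out, and neither was called in the fit over 12 arrays. The other rises among such called members were smaller. The log2 differences were 1.21 ± 0.21 for uc.301-, 1.21 ± 0.27 for uc.279+, 1.07 ± 0.13 for uc.229- and 0.81 ± 0.13 for uc.378+.

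Among called members of the same kind, the 6 largest falls were all below 1.3 on the log2 scale. The first was in the + probe of an element whose transcripts others have reported, at 0.438, 0.319, 0.857 and 0.461 in Control and 0.193, 0.203, 0.226 and 0.205 in CIA, a log2 difference of -1.23 ± 0.26 (limma adjusted p = 0.0265). The others were uc.200-, uc.113+, uc.181+, uc.321- and uc.153-, between -0.73 and -0.60. Of the 13 members named between CIA and Control, uc.15- included, 10 lost their call without Control replicate 4. The level of uc.15- was not well above background on any Control array and was so on all 4 CIA arrays, at least 2.72-fold higher, where the bound sets the CIA mean against the dimmest signals well above background on the Control arrays. Its log2 difference was 1.72, and with normexp it turned to -0.022.

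BZXD and CIA differed at most of the tested elements, as they did at most probes of the array. Between them 370 of 541 members passed the threshold, 73 higher and 297 lower in BZXD, or 68.4%, beside 70% of all probes tested. The lower calls took 44.4% and the higher calls 25.6% of all probes tested. The median log2 difference was -1.08 over the members and -0.60 over all probes. Between BZXD and Control, which share the BZXD arrays with this comparison, 381 passed, 74 higher and 307 lower, beside 72.8% of all probes. Of the 297 lower calls against CIA, 196 were of members detected on none of the BZXD arrays and 62 of members well above background on all 8 arrays.

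The direction of the group as a whole differed with the background correction, as did that of all probes. With normexp, 361 members were higher and 95 lower in BZXD than in CIA, or 84.3% called, beside 80.9% of all probes. Of these calls 79.2% were higher, beside 75.8% over all probes, and the median over all probes moved from -0.60 to 0.47. With median scaling 93 were higher and 252 lower, or 63.8% called, beside 65.5% of all probes. Of these calls 27.0% were higher, beside 45.2% over all probes, and the all-probe median was -0.25. Among the 159 members well above background on all 8 arrays, 45 were higher and 62 lower, or 67.3% called and 42.1% of the calls higher, beside 69.4% and 54.7% over all probes under that filter, and the median was -0.08 beside 0.19. The higher and lower counts of members were 56 and 62 with normexp, 61 and 51 with median scaling, and 65 and 64 without BZXD replicate 2. All probes under that filter were not counted in these settings, so whether the members differed from them there is not known.

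Detection can be counted without scaling the levels. It still depends on how bright an array is, and the BZXD arrays were the dimmest. The members were also detected less often than all probes in every group. How far this accounts for their larger losses was not tested. Of the members well above background on all 4 CIA arrays, 160 (38.5%) were so on no BZXD array and 159 (38.2%) on all 4. Over all probes these shares were 23.4% and 48.8%. Without BZXD replicate 2, 167 members (40.1%) were on none of the 3 BZXD arrays left and 182 (43.8%) on all 3. Over all probes these shares were 28.1% and 53.9% without it. Of 315 members on no CIA array, 3 (0.952%) were on all 4 BZXD arrays, beside 11.4% of all probes. Between Control and CIA, 354 of 378 members (93.7%) were kept and none was lost from all 4 arrays. Over all probes 96.0% were kept and none was lost either.

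Several members that were bright in Control and CIA were dim in BZXD. The level of uc.271+ was 17.1, 20.6, 16.7 and 20.3 in Control, 15.2, 21.6, 18.1 and 22.8 in CIA, and 0.931, 0.352, 0.330 and 0.470 in BZXD. No BZXD array came near the others, and the log2 difference between BZXD and CIA was -5.33 ± 0.33 (SE, limma adjusted p = 3.34e-06). Among members well above background on all 8 arrays the other large falls were -4.94 ± 0.39 in the + probe with the largest strand move, described with its partner further on, uc.460- at -3.60 ± 0.28, uc.425- at -3.18 ± 0.15 and uc.482- at -3.06 ± 0.20. The + probe of another element with reported transcripts followed at -2.90 ± 0.20. Against Control, uc.462- fell as well, from 5.18, 4.96, 3.93 and 4.43 to 0.523, 0.480, 0.391 and 0.481, a log2 difference of -3.30 ± 0.17 (limma adjusted p = 2.25e-06).

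Other members passed from all 4 CIA arrays to no BZXD array. The level of uc.327+ was 3.01, 3.36, 3.19 and 3.39 in CIA and 0.0627, 0.0675, 0.0506 and 0.165 in BZXD, at least 22.3-fold lower in BZXD against the dimmest signals well above background there. The bound was 14.2-fold for uc.83-, 9.30-fold for uc.61- and 8.52-fold for uc.238+. For uc.61- the CIA arrays themselves spread from 0.511 to 2.46. Against Control, uc.194- was at least 14.6-fold lower, and Control replicate 1 was its lowest Control array at 1.14, beside 2.42 to 2.82.

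Members higher in BZXD included some with large rises. The level of uc.420+ was 0.0814, 0.140, 0.180 and 0.172 in Control, 0.105, 0.0942, 0.125 and 0.140 in CIA, and 22.2, 1.97, 24.5 and 27.1 in BZXD. All BZXD arrays were higher than all others, with replicate 2 far below the other 3. The log2 difference between BZXD and CIA was 6.83 ± 0.78 (SE, limma adjusted p = 7.62e-05), and 7.74 without that array. Its partner uc.420- was not well above background on any Control or CIA array and was so on all 4 BZXD arrays, at 0.901, 1.40, 0.953 and 1.05, at least 16-fold higher than CIA. Both strands of this element were thus higher in BZXD.

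The level of uc.448- was 5.27, 3.65, 3.82 and 3.52 in Control and 418, 182, 292 and 292 in BZXD, a log2 difference of 6.14 ± 0.26 (SE, limma adjusted p = 1.64e-06). In CIA its spot was left out as an outlier on replicate 3, and the other 3 arrays gave 4.72, 4.87 and 4.75. The level of uc.465- was 43.1, 46.6, 49.4 and 46.5 in CIA and 567, 359, 430 and 472 in BZXD, a log2 difference of 3.28 ± 0.18 (limma adjusted p = 1.89e-06). These groups were far apart on every array. The log2 difference between BZXD and CIA was 3.36 ± 0.58 for the + probe that rises in the fifth panel of the plot of levels, 3.33 ± 0.30 for uc.393+ and 3.32 ± 0.67 for uc.10-. Without BZXD replicate 2 they were 4.0, 3.62 and 4.05. The further rises against Control were 3.22 ± 0.49 for uc.243+ and 3.16 ± 0.26 for uc.354+. Of uc.247+, at 4.88 ± 1.77 (limma adjusted p = 0.0349), the size rested on BZXD replicate 2, which was at 471 beside 0.859, 2.02 and 1.86, and the difference was 2.80 without it.

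From no CIA array to all 4 BZXD arrays went uc.408-, uc.420- and a - probe of an element in a gene of an RNA-processing protein, whose partner is the last panel of the plot of levels. The bound was 18.6-fold higher than CIA for uc.408- and 12-fold for the last of the 3. Against Control, uc.282+ was at least 8.02-fold higher. That partner was bright in every group, at 20.2 to 31.9 in Control, 28.6 to 46.8 in CIA, and 53.2, 53.4 and 64.3 on the 3 BZXD arrays with a value. So that element was detected from + alone in Control and CIA and gained its - signal in BZXD.

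**Figure D3:**
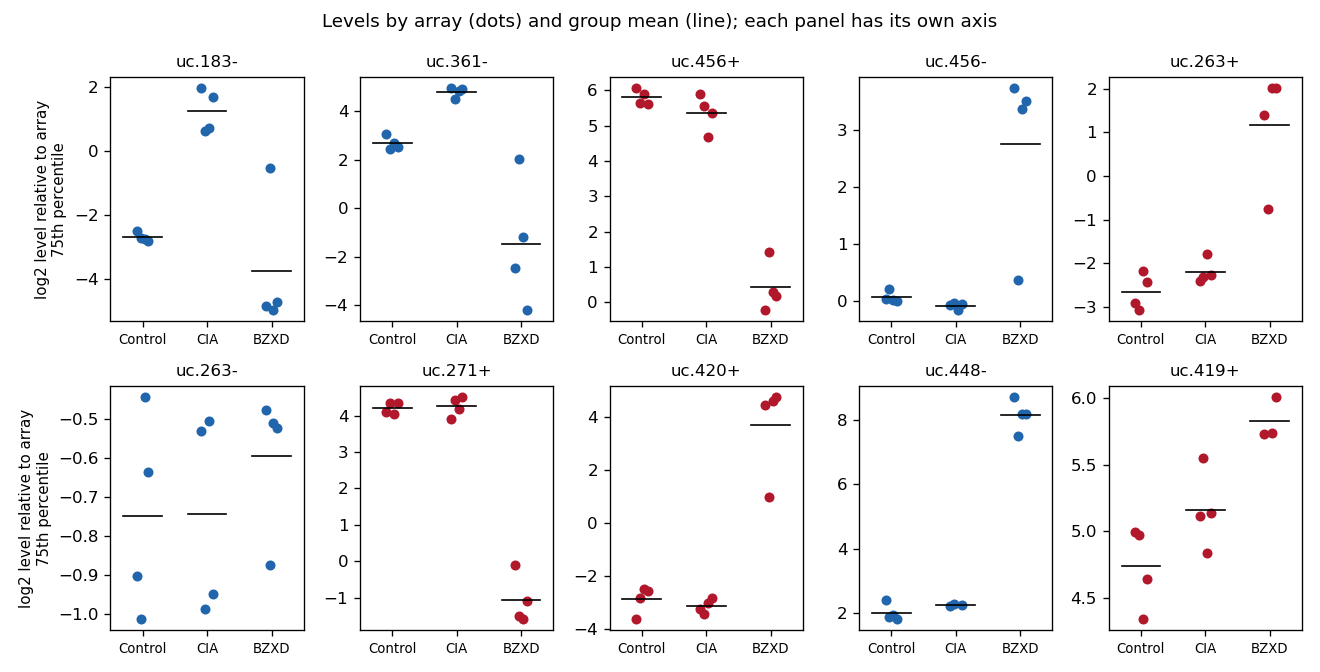
Level of 10 probes relative to the array's 75th percentile (y axis, log2, each panel with its own range) on each array (dots) of the 3 groups, with the group mean (line); - probes are blue and + probes red. The spots of uc.448- on CIA replicate 3 and of the last + probe on BZXD replicate 2 were left out as outliers. In the first pair of probes shown for 1 element, + falls in BZXD while - rises, least on replicate 2; in the second pair + rises while - stays between 0.495 and 0.734 on the linear scale in all groups.

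How often the 2 strands of an element were called together was counted where both probes were tested, in 167 elements. Between BZXD and CIA, both passed the threshold in the same direction in 59 elements, in 56 of them lower, and in opposite directions in 17. In 75 elements 1 probe passed and in 16 neither. Of all tested members, 144 of 266 + probes were called lower and 31 higher, and 153 of 275 - probes lower and 42 higher. At such rates many pairs share a direction even if their strands are unrelated. Whether the strands were tied beyond that was not tested. With normexp 84 elements moved the same way, 77 of them higher, and 29 in opposite directions, of which 2 were among the 17. Without BZXD replicate 2 the counts were 63 and 33, with 16 of the 17 among the latter. Between CIA and Control no element had both probes called and 23 had 1.

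The difference between the + and the - probe of an element within an array removes the scaling of the array. Where signal is proportional to RNA, how much this difference moved between groups does not depend on how well each probe binds. The move can still depend on the background correction, and values with normexp are given below for several elements. The strand difference was taken where both probes were well above background on all 8 arrays. Between BZXD and CIA this held for 18 elements, and the difference did not overlap between the groups in 12 of them (66.7%), 3 moving toward + and 9 toward - in BZXD. Between CIA and Control it held for 72 elements, of which 18 (25%) did not overlap, 12 toward + and 6 toward - in CIA. Between BZXD and Control 14 of 20 (70%) did not overlap, 5 toward + and 9 toward -. For single probes, groups did not overlap at 65.7%, 21.1% and 68.5% of all probes tested in these 3 comparisons. Across the 18 and the 72 elements the changes of the 2 probes had Pearson correlations of -0.10 and -0.09, which describe elements measured on the same arrays.

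The largest move was that of the element labelled at the far upper left in the plot of strand changes, an element in a gene of an RNA-processing protein. Its + probe was at 66.4, 49.8, 58.9 and 49.0 in Control, 59.5, 46.9, 25.3 and 40.6 in CIA, and 0.858, 2.70, 1.23 and 1.14 in BZXD. Its - probe was at 1.02, 1.15, 1.01 and 0.992 in Control, 0.953, 0.967, 0.891 and 0.962 in CIA, and 13.4, 1.29, 10.4 and 11.5 in BZXD. The + probe was lower in BZXD on every array, and the - probe was higher on every array but close to the other groups in replicate 2. The log2 difference between strands averaged 5.45 ± 0.474 over the CIA arrays and -2.33 ± 2.29 over the BZXD arrays (SD, n = 4 each), a change of -7.78, and -8.91 without BZXD replicate 2.

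In uc.299 the + probe fell from 9.67, 12.1, 9.22 and 9.52 in CIA to 2.05, 1.76, 1.94 and 2.61 in BZXD, while the - probe was at 0.360, 0.423, 0.565 and 0.440 in CIA and 2.40, 0.363, 3.24 and 4.05 in BZXD. The change of the strand difference was -4.34, and -5.04 without BZXD replicate 2. The - probe's rise overlapped CIA through BZXD replicate 2. Moves toward - were also measured in uc.2 (-2.79, or -1.71 with normexp) and uc.246 (-2.54, or -0.93 with normexp). Moves toward + between BZXD and CIA were 3.21 in the element labelled at the far right of that plot, 2.65 in uc.414 and 0.72 in uc.425, where both probes fell. In the first of these, also in such a gene, the + probe went from 0.187, 0.202, 0.287 and 0.208 to 2.63, 0.591, 4.03 and 4.03, and with normexp the move was 1.41. Against Control, uc.462 moved by 3.57 toward +, or 2.07 with normexp, and uc.352 by 0.82, or 0.039 with normexp.

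Among elements whose strand difference did not overlap between CIA and Control, the largest move was -4.36 in uc.183, set by its - probe, and it was -2.16 with normexp. The others toward - were -0.91 in uc.413, -0.80 in uc.260 and -0.74 in uc.162, and with normexp -0.15, -0.30 and -0.94. Toward + the move was 1.24 in uc.48, where Control replicate 3 had the + probe at 0.228 beside 2.46 to 2.71 on the other Control arrays, and 0.38 without that array. It was 0.88 in uc.378, 0.74 in uc.407 and 0.66 in uc.167, and with normexp 0.19, 0.26 and 0.35. Elements with overlap could move further, as uc.329 did by 2.44 toward +; it was picked out after its values were seen.

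**Figure D4:**
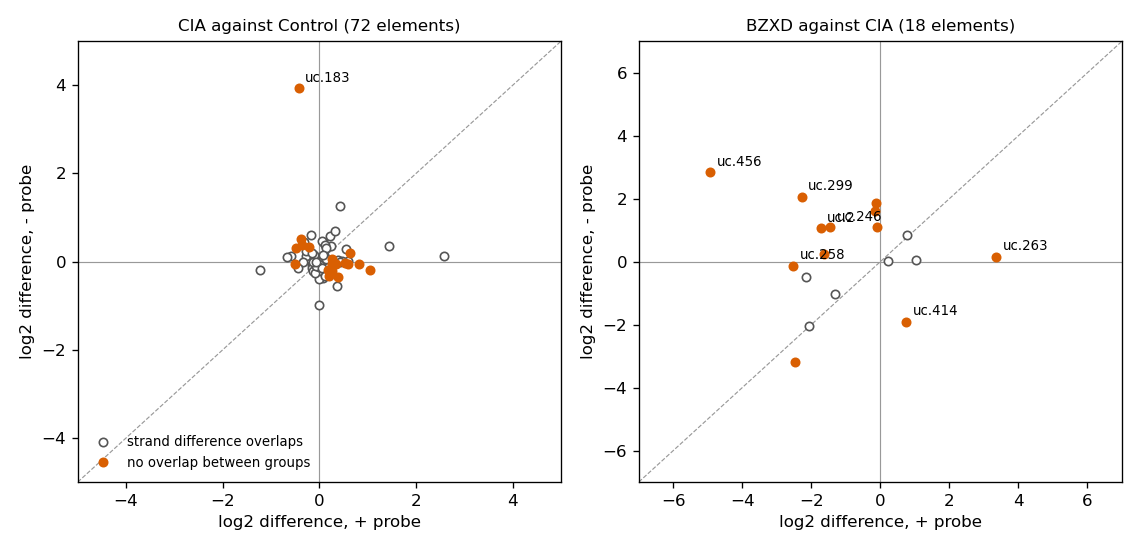
Log2 difference between groups of the + probe (x axis) and of the - probe (y axis) of each element whose probes were both well above background on all 8 arrays, for CIA against Control (72 elements, left) and BZXD against CIA (18 elements, right). Filled points are elements whose strand difference did not overlap between the groups, 18 on the left and 12 on the right; points on the dashed line changed equally on both strands.

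A pair of lists of elements were described beside the whole set, chosen with earlier results of these data known. The first held 17 elements whose transcripts have been reported by others, among them uc.63 in breast cancer and uc.73 in colorectal cancer. Of their 34 probes 21 were tested. Between BZXD and CIA 2 were higher and 11 lower, with a median log2 difference of -0.86 beside -1.08 over all members and -0.60 over all probes. Over all probes 25.6% were higher and 44.4% lower. Between BZXD and Control 1 was higher and 14 lower, beside 25.5% and 47.3% of all probes. The median there was -1.44, beside -1.10 over all members and -0.69 over all probes. Between CIA and Control 1 was higher and 1 lower, both + probes. The + probe was on all 4 arrays for 9 of the 17 in Control, 8 in CIA and 4 in BZXD, and the - probe for 7, 8 and 2. Over the 479 elements the shares were 38.4%, 42.0% and 15.7% for + and 40.5%, 44.9% and 19.4% for -. The level of uc.63- rose from 0.513, 0.355, 0.438 and 0.510 in CIA to 3.27, 2.58, 4.12 and 2.99 in BZXD, a log2 difference of 2.83 ± 0.21 (SE, limma adjusted p = 7.29e-06). No array had its + probe well above background. In contrast the - probe of the element whose + probe was lower in CIA fell in BZXD, from 0.706, 0.862, 0.653 and 0.784 to levels not well above background, at least 5.19-fold lower.

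The second list held 17 elements in genes of RNA-processing proteins, taken from general knowledge of the human annotation and not from the files. Of their 34 probes 26 were tested. Between BZXD and CIA 9 were higher and 8 lower, with a median log2 difference of 0.22 beside -1.08 over all members and -0.60 over all probes, of which 25.6% were higher and 44.4% lower. Over members well above background on all 8 arrays of this comparison the median was -0.08, beside 0.19 over all probes under that filter. The counts and median of the list were taken in the main setting only. Between BZXD and Control 10 were higher and 7 lower, beside 25.5% and 47.3% of all probes. Between CIA and Control 1 + probe was lower, at -0.57 ± 0.09. The + probe was on all 4 arrays for 10, 12 and 7 of the 17 in Control, CIA and BZXD, and the - probe for 8, 8 and 5. Among all 479 elements, these shares were 38.4%, 42.0% and 15.7% for + and 40.5%, 44.9% and 19.4% for -. The list was thus detected more often than the whole set in BZXD, and its median was not compared with members of like detection. The largest rise in the list was in a - probe at 0.10, 0.104, 0.148 and 0.150 in CIA and 9.30, 7.33 and 8.13 on the 3 BZXD arrays with a value, a log2 difference of 6.06 ± 0.23 (SE, limma adjusted p = 1.26e-06). In another element of the list the strands parted. In BZXD the + probe was called lower than in CIA and was on no array well above background, and the - probe was higher by a log2 difference of 1.40 ± 0.24. With quantile normalization the fall of that + probe was not called. With normexp this element was not among those whose strands were called in opposite directions.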

How the data were processed

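Synovial RNA of 12 rats was hybridised to 12 single-colour Agilent arrays, 4 for each group. Scanner output was made with Agilent Feature Extraction 11.0.1.1, per the submitters' processing notes. The deposited intensity is the software's background-subtracted processed signal, with flags for spots well above background and for outliers, per the file headers. The deposited value table holds log2 values whose scale, by comparison with each array's own log2 intensity, is log2; its normalization is not given in the sources used here, its median was 3.75 on 11 arrays and 2.80 on BZXD replicate 1, and it was used as an alternative. Arrays give no read depth, and their number limits the precision.

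Outlier spots were left out, control spots too, log2 intensity was taken and each array's 75th percentile over non-control probes subtracted. An outlier spot was also counted as not well above background; that choice was made after a first set of results had been seen, and the other choice is given as an alternative. Probes well above background on at least 4 of 12 arrays (31288 of 38804) were tested with limma 3.58.1 (R 4.3.3; lmFit, eBayes with trend) on the 8 arrays of each comparison, with Benjamini-Hochberg adjustment over all of them and a threshold of 0.05. Fits on 8 arrays were preferred to 1 fit on 12 with earlier results known. Probes left out of BZXD comparisons had too few values. The strand-gap test was an exact permutation test (Python 3.11.15, scipy 1.17.1).

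Members and lists were chosen with earlier results of these data known. Named members were, per comparison, the 6 largest rises and falls among called members well above background on all 8 arrays without overlap; up to 4 called members on all arrays of one group and none of the other, by bound; up to 4 strand-difference moves each way; the 4 brightest elements detected from 1 strand alone; and the 2 lists. Of list members that the text describes without a name, the largest strand move was in uc.456, the largest toward + between BZXD and CIA in uc.263, the - probe gained in BZXD in uc.419, the largest rise of the RNA-processing list in uc.186-, its parted strands in uc.443 and its fall in CIA in uc.174+. Among reported transcripts, the largest fall in CIA was in uc.346+, the rise in uc.475+ and the fall of -2.90 in uc.338+. Replicates are separate rats per the labels; the numbers did not pair them, with same-number correlations from -0.13 to 0.57. Alternatives covered the fit, the block, background correction, scaling, the filter, spots, the threshold and each array left out. The fits were tested on simulated data of 29449 probes, with 100 probes changed 2-fold and 100 changed 4-fold. In the real data far larger shares were called, 10.7%, 70% and 72.8% for the comparisons in the order below. The Benjamini-Hochberg cut-off depends on that share, so recovery in the simulation does not give recovery in the real comparisons. For CIA against Control 69% and 90% of the changed probes were recovered, and 22 unchanged probes were called. Recovery was 11% and 61% for BZXD against CIA, with 16 unchanged probes called. It was 13% and 58% for BZXD against Control, with 11 unchanged probes called.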

Additional observations from a re-analysis of the deposited data

Results flagged for a closer look

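For each group's strand gap and for each named member's log2 level, the 4 arrays of each group were examined for 1 array far from the rest, by the gap to its nearest neighbour over the group's range (Dixon's ratio, at its 95% critical value for 4 arrays). In 94 groups of values 8 passed, where chance gives about 1 in 20 groups, and 6 of the 8 were on BZXD replicate 2.

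In BZXD the + share minus the - share well above background had a ratio of 0.964, with replicate 2 at -7.88 points and the others between -2.44 and -2.24. BZXD replicate 2 was also the low array for uc.420+ (0.924), uc.378+ (0.914), a + probe of the list of reported transcripts (0.848) and uc.153- (0.831), and the high array for uc.247+ (0.864), where its log2 level was 8.88 beside -0.22 to 1.02. Control replicate 1 was the low array for uc.378+ in Control (0.976) and for uc.194- in Control (0.834). What sets these arrays apart was not tested.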

How the results depend on the processing

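The count of members called between CIA and Control was 47, and 3 at adjusted p 0.01, 0 in the fit over 12 arrays, 355 with normexp and 73 with the replicate number as a block (replicate block); leaving out 1 array gave 4 to 45. The block gave 373 against 370 between BZXD and CIA and 366 against 381 between BZXD and Control, and the numbers did not pair the samples. Between BZXD and CIA the count was 577 with no filter on dim probes and 107 on members well above background on all 8 arrays, and 335 to 405 with 1 array left out. Between BZXD and Control it was 105 on such members and 344 to 429. The rise of uc.15- in CIA reversed to -0.022 with normexp; the cause was not tested.

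The strand gap between BZXD and CIA was -1.73 points. It no longer passed the unadjusted threshold with outlier spots keeping their detection flag (-1.52), the setting used in the first set of results, or over elements with both signs (-1.67). With the looser flag of positive and significant signal it was -6.12 and passed unadjusted. Leaving out 1 array gave -2.22 to -0.336, where 3 against 4 arrays cannot pass. Between BZXD and Control it passed unadjusted with that looser flag (-6.43).

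With outlier spots keeping their flag, 543 members were tested and the counts called were 46, 370 and 381. Both strands, + alone, - alone and neither were, with the looser flag, 228, 26, 18 and 4 in Control and 224, 22, 20 and 6 in CIA, and both and neither were 72 and 69 in BZXD. With 1 array enough, both and + alone were 190 and 105 in Control and 223 and 95 in CIA, and both, + alone and - alone were 81, 80 and 103 in BZXD; with 3 of 4 arrays, both was 37 in BZXD. Strand differences without overlap between CIA and Control were 28 with normexp, 35 with a looser filter on detection (at least 4 of 12 arrays), and 18 to 31 with 1 array left out. With that filter they were 74 between BZXD and CIA and 84 between BZXD and Control; with 1 array left out between BZXD and CIA they were 12 to 19. None of the 23 named strand moves reversed under the alternatives run. All alternatives on outlier flags, on both strands together and on members detected on all 8 arrays were chosen after seeing the data.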
